A study of Zea mays with 18 samples.

Results

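The microRNA (miRNA) content of maize seedling roots was compared between the start of the experiment and 8 days later, with phosphate supplied at 1000 µM on both occasions. All plants were of the inbred line Q319, with no transgene or mutation given in the labels. They grew in nutrient solution in a greenhouse. Day 0 roots came from seedlings at the 3-leaf stage and day 8 roots from seedlings at the 4-leaf stage. Each day had 2 small RNA libraries, and each library was made from segments of 15 to 20 pooled plants. These 4 libraries were chosen by organ, phosphate supply and day, out of 18 libraries in the study. The others were 4 leaf libraries at sufficient phosphate on the same days, and 10 root or leaf libraries of a low phosphate series at 5 µM, with 1 library per organ and day. The comparison asks how root miRNAs differ between the stages when phosphate is not limiting. Age, leaf number, days in solution and harvest day changed together and cannot be told apart.

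Plant miRNAs are short RNAs cut from hairpin precursors. One strand, the guide, is loaded into an Argonaute protein and directs cleavage or reduced translation of matching messenger RNAs, while the opposite strand, written here with an asterisk and called the star strand, is mostly degraded. Many conserved plant miRNAs target transcription factors that set organ growth, root branching and the passage from juvenile to adult phases, and others respond to supplies of phosphate, copper or sulfate.

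The deposited table listed 246 miRNA entries in 25 families. Where entries of the same family had equal counts in all 8 libraries, 1 of them was kept, which left 197 distinct entries. Of these, 149 had at least 10 counts in at least 2 of the 8 sufficient phosphate libraries and were tested. By the asterisk in the name, 97 were guide and 52 star strands. The 48 entries not tested had at most 14 counts in any root library. Among the tested entries, 9 had fewer than 10 counts in every root library and passed the filter through leaf, and 2 of them, miR171d* and miR171e*, had no count in root, where up to 3 counts per library would be compatible with a count of 0.

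Listed counts summed to 11136205 and 9505134 in the day 0 libraries and to 10524030 and 8528196 in the day 8 libraries. The labels conflict on the day 8 pair: title and tissue label give day 8 and the 4-leaf stage, while the source name gives day 0. The titles were followed. The columns were not copies of the day 0 columns, since only 1 entry of the first pair and 4 of the second with at least 10 counts had the same count on both days. Pearson correlations of log2 CPM (counts per 1000000, scaled between libraries) were 0.994 and 0.997 between replicates of day 0 and day 8, 0.990 to 0.994 between days, and 0.836 to 0.861 between any root and any leaf library. No set of organ-defining miRNAs was available, so the organ label was checked by these correlations alone. Whether the 2 libraries of a day came from separate cultures is not stated beyond the word repeat, so the spread between them may be partly technical.

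The abundant part of the root miRNA profile differed little between the 3-leaf and the 4-leaf stage, and the larger differences lay among scarce entries. No entry passed an adjusted p of 0.05 by edgeR's quasi-likelihood test, that is 0 of 149 (0%), while 22 (14.8%) had an unadjusted p under 0.05. Of those 22, 9 (6.04% of entries tested) were higher on day 8 and 13 (8.72%) were lower. The smallest adjusted p was 0.0603. DESeq2 called 8 entries and limma 0. The median absolute log2 difference between days was 0.276, against 0.163 between the day 0 replicates and 0.149 between the day 8 replicates. Of the 30 entries with a mean root level of at least 1000 CPM, none differed 2-fold, and the farthest from 0 had an absolute log2 change of 0.30. Many of these 30 share nearly all their reads within a family, such as miR156a and miR156c, so they are fewer separate items. Among the 133 entries with at least 10 counts in at least 2 root libraries, a 2-fold difference was seen in 11, 5 higher and 6 lower on day 8. Of these 11, 10 lay under 100 CPM, where 90 of the 133 lay. The median log2 change over all tested entries was 0.07.

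**Figure D1:**
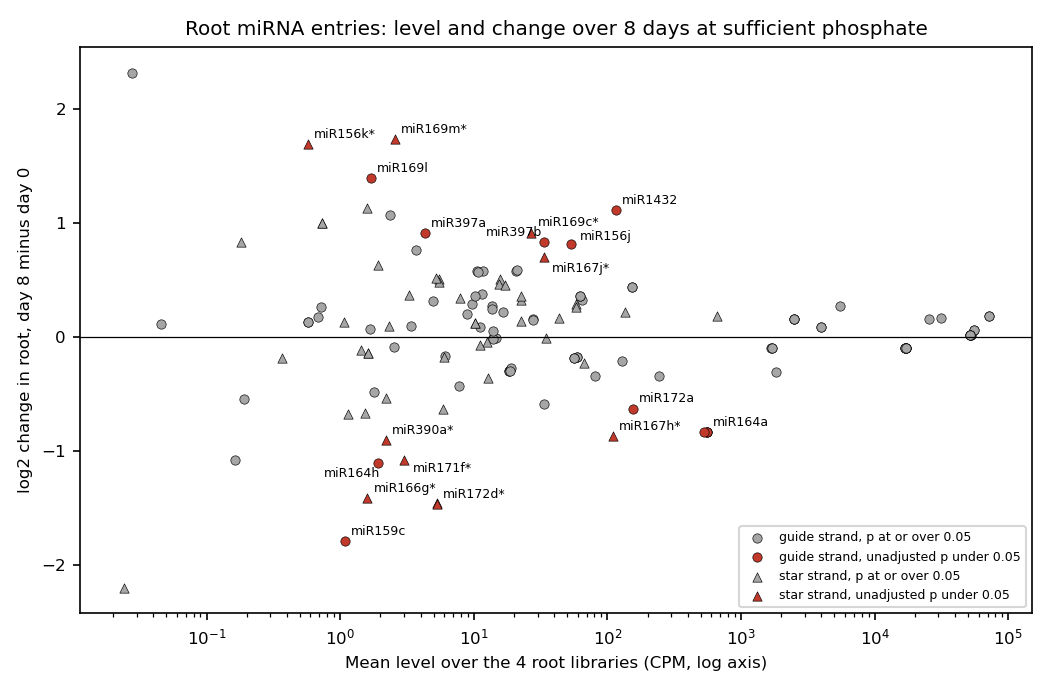
Mean level over the 4 root libraries (x axis, CPM, log scale) against the log2 change from day 0 to day 8 (y axis) for the tested entries, with circles for guide and triangles for star strands. The 22 entries with an unadjusted p under 0.05 are red. Of these, 15 lie under 100 CPM, as do 106 of the 149 tested entries. The 2 entries without counts in root are not drawn, and points above 1000 CPM lie within 0.30 of 0.

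How many entries passed differed with the libraries and entries in the fit. When the filter of 10 counts in 2 libraries was applied to the 4 root libraries, 133 entries remained and 17 (12.8%) passed the adjusted threshold, with 7 higher (5.26%) and 10 lower (7.52%) on day 8. A fit of the root libraries alone called 0, with 30 at an unadjusted p under 0.05. Leaving out a leaf day 8 library gave 19 calls (replicate 1) or 20 (replicate 2), and leaving out either leaf day 0 library gave 0. Leaving out root day 0 replicate 1 or 2 gave 4 or 3 calls, and leaving out root day 8 replicate 1 or 2 gave 17 or 9. The filter on the root libraries, called the root filter below, chose the entries only, and its fit still used all 8 libraries. The adjusted p below is from the fit of all 149 entries, unless the root filter is named. Fewer cells of a type and less of an miRNA per cell cannot be told apart in these whole-root samples.

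Counting entries whose libraries did not overlap gave 86 of 149 (57.7%), 52 (34.9%) higher and 34 (22.8%) lower on day 8. Many entries of a family are near copies that share reads. The 22 entries at an unadjusted p under 0.05 formed 18 groups with counts alike within 5%, 9 higher and 9 lower, out of 105 such groups over all tested entries.

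Among regulators of organ growth, every tested entry of the miR164 family had a lower level on day 8. miR164 targets NAC transcription factors, which in Arabidopsis include a promoter of lateral root formation. The 7 entries showed no overlap between days, beside 22.8% lower without overlap over all entries. Of the 7, 5 had an unadjusted p under 0.05, beside 8.72% lower over all entries. The family's median log2 change was −0.83, beside 0.07 over all entries. miR164a had 8828 and 7247 counts on day 0 and 5356 and 2910 on day 8. Its level was 707 ± 15.5 CPM (SD, n = 2) on day 0 and 397 ± 104 CPM on day 8, a log2 change of −0.83 (SE 0.35, adjusted p = 0.261). Both day 8 libraries were low and differed from each other far more than the day 0 pair did. miR164b, miR164c and miR164g share nearly all of these reads and add no separate evidence. The scarce miR164h had 33 and 27 counts, then 14 and 11, a log2 change of −1.10 (SE 0.34, adjusted p = 0.103). The most abundant member, miR164e, had 25249 and 20914 counts on day 0 and 17907 and 15547 on day 8, 2032 ± 31.7 against 1649 ± 109 CPM, a log2 change of only −0.30 (SE 0.16, adjusted p = 0.361). Its groups did not overlap, and the fold was smaller than in miR164a. Under the root filter miR164h (adjusted p = 0.0216), miR164e (0.0239) and miR164f (0.0412) passed and miR164a did not (0.209).

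The other growth regulators gave smaller differences. miR159, which targets GAMYB-like factors, had 5 of 6 entries lower without overlap, beside 22.8% over all entries, and a median log2 change of −0.18. Of these, miR159a and miR159b are near copies that share reads, as are miR159f and miR159j. The pairs were also close to each other, with 759 and 606 counts, then 633 and 452, for miR159f, and may share reads. The family's lead entry miR159a had 793 and 631 counts and then 677 and 462, a log2 change of −0.18. The rare miR159c, identical to miR159d in this table, stood apart with 23 and 16 counts, then 7 and 3, a log2 change of −1.79 (SE 0.43, adjusted p = 0.0603, and 0.00473 under the root filter). Its star entry, identical to miR159d*, had 17 and 17 counts, then 21 and 26, a log2 change of 0.63. The guide and star entries thus lay on opposite sides of 0. miR171, which targets GRAS-domain factors of the HAIRY MERISTEM group, had a median of −0.28. Without overlap, 8 of its 14 entries were lower and 1 higher, beside 22.8% and 34.9% over all entries. Of the 8, miR171b, miR171d, miR171e, miR171f, miR171i and miR171j are near copies that share reads. miR171f* had 53 and 40 counts, then 17 and 22, a log2 change of −1.07 (SE 0.37, adjusted p = 0.157, and 0.0114 under the root filter), against −0.29 for its guide. The lead entry miR171i was at −0.27.

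miR166 restrains class III homeodomain-leucine zipper genes, which pattern vascular tissue. Its 17 tested entries had a median log2 change of −0.09, and the lead entry miR166a had 200176 and 196713 counts, then 184179 and 151696, with overlapping CPM. miR166g* had 27 and 26 counts, then 13 and 5, a log2 change of −1.41 (SE 0.41, adjusted p = 0.0958, and 0.0112 under the root filter), while its abundant guide was at −0.09. The 3 tested entries of miR319, a regulator of TCP factors, lay between 0.22 and 0.27 on the log2 scale. miR396 acts on growth-regulating factors. Its lead entry miR396c had 1263 and 822 counts, then 738 and 712, a log2 change of −0.34 (adjusted p = 0.571). Over the growth regulator list of 52 entries, 0 were higher and 8 lower at an unadjusted p under 0.05, beside 8.72% lower over all entries, and the median log2 change was −0.14. Counting the near copies of miR164a once leaves 5 separate lower items. With the root filter 6 of the list passed, all lower, beside 7.52% lower over all entries.

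**Figure D2:**
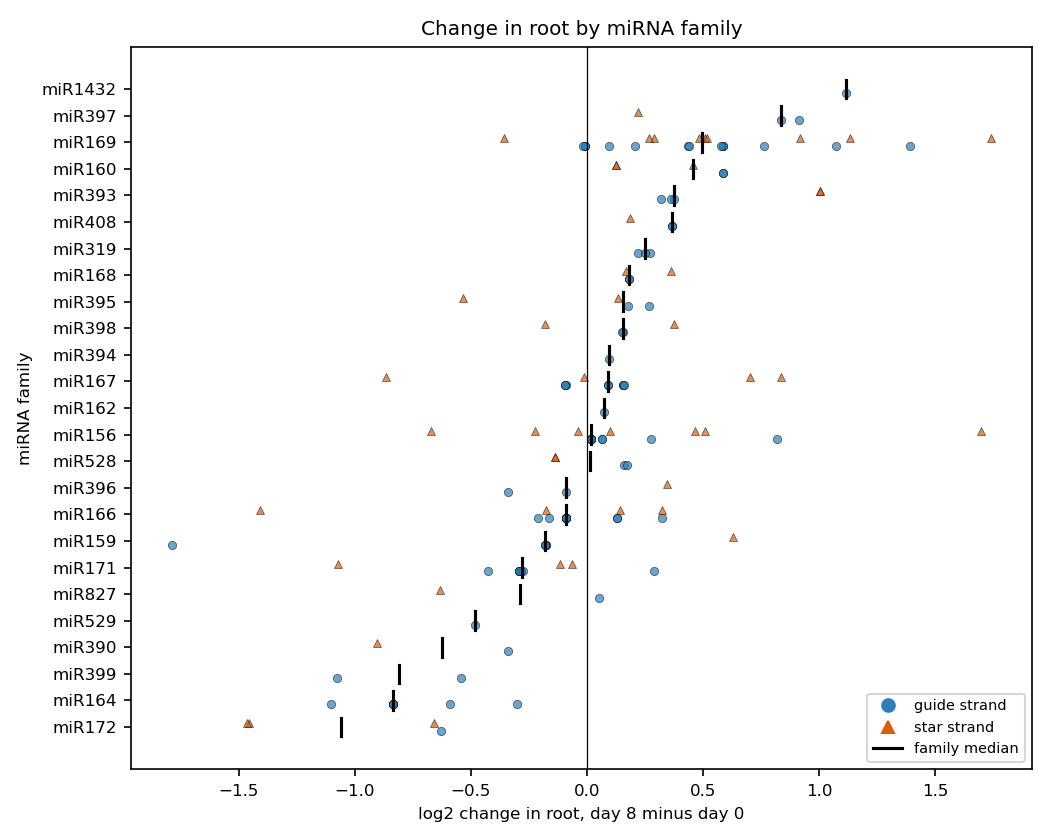
Log2 change in root from day 0 to day 8 (x axis) for each family (y axis, ordered by median), with circles for guide strands, triangles for star strands and a bar at the median over all tested entries of the family. miR172 and miR164 have medians of −1.06 and −0.83, and miR169 and miR397 of 0.50 and 0.83; 5 entries with a mean root level under 0.1 CPM are not drawn as points.

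Of the phase change miRNAs, miR172 had a lower level on day 8 and most miR156 entries were near 0 in log2 change. In maize and other plants miR156 marks the juvenile phase and restrains SPL transcription factors, and miR172 is high later and restrains AP2-like factors. miR172a, whose mature entry is shared by miR172b, miR172c and miR172d, had 2320 and 1946 counts on day 0 and 1329 and 1140 on day 8. These were 188 ± 1.26 and 122 ± 6.99 CPM, a log2 change of −0.63 (SE 0.26, adjusted p = 0.261, and 0.000647 under the root filter), or 1.54-fold lower. The replicates of each day lay close together and the days did not overlap. The star strand miR172d* had 71 and 102 counts, then 30 and 27, a log2 change of −1.46 (SE 0.37, adjusted p = 0.0603, and 0.000212 under the root filter). miR172b* had the same counts but for 1 read and shares them. The family's 4 tested entries were all below 0, with a median of −1.06.

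The miR156 family held similar shares of distinct counts at both stages, 56.9% and 51.7% on day 0 and 54.8% and 52.9% on day 8. Near copies such as miR156a and miR156c count the same reads more than once, so these are not shares of the reads in a library. miR156a had 663326, 518491, 603096 and 470612 counts, or 51886 ± 2936 CPM on day 0 and 52587 ± 494 CPM on day 8, a log2 change of 0.02 (SE 0.09, adjusted p = 0.917) that became −0.07 under the root filter. The exception among guides was miR156j. It had 445 and 433 counts, then 832 and 576, 38.9 ± 3.82 against 68.5 ± 6.43 CPM, a log2 change of 0.82 (SE 0.23, adjusted p = 0.0882, and 0.000116 under the root filter). It lay about as far from 0 as miR172a but in the other direction, at a level far below miR156a. miR156k* had 4 and 2 counts, then 10 and 8, too few for the root filter, with a log2 change of 1.70 (SE 0.65, adjusted p = 0.226); its abundant guide miR156k was at 0.28. miR529, which shares SPL targets with miR156, had 24, 23, 14 and 16 counts and a log2 change of −0.48 (adjusted p = 0.571). Over the 22 tested entries of the phase change list, 2 were higher and 3 lower at an unadjusted p under 0.05. The shares over all entries were 6.04% and 8.72%. Under the root filter 1 higher and 3 lower passed, beside 5.26% and 7.52% over all entries.

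miR169, the family with the most tested entries, lay mostly on the higher side. It targets the NF-YA subunits of a CCAAT-binding transcription factor, which act in root architecture and in responses to drought and nutrient supply in several species. Of 22 tested entries, 18 had a log2 change above 0, beside 84 of 149 over all entries and 14 of 17 in miR156. The median was 0.50. Without overlap 15 were higher and 1 lower, beside 34.9% and 22.8% over all entries. Near copies that share reads, such as miR169f and miR169h, were counted separately. At an unadjusted p under 0.05, 3 were higher, beside 6.04% over all entries. These 3 entries, miR169m*, miR169l and miR169c*, also passed under the root filter, beside 5.26% higher over all entries. miR169m* had 16 and 11 counts on day 0 and 50 and 32 on day 8. Its level was 1.18 ± 0.173 CPM and then 3.97 ± 0.592 CPM, a log2 change of 1.74 (SE 0.37, adjusted p = 0.0603, and 0.000632 under the root filter). Its guide miR169m, identical here to miR169n and miR169q, had 16, 18, 30 and 34 counts and a log2 change of 1.07 (adjusted p = 0.333). Guide and star entries were both above 0, but the guide reads may come from more than 1 hairpin. miR169l had 10 and 11 counts, then 27 and 23, a log2 change of 1.39 (SE 0.36, adjusted p = 0.0603). miR169c* was higher in both day 8 libraries, with 209 and 210 counts and then 308 and 390, a log2 change of 0.92 (SE 0.27, adjusted p = 0.0958). The abundant entries miR169r and miR169c, which share reads, were both at 0.44. miR169r had 1712 and 1256 counts, then 1687 and 1840, 130 ± 13.2 against 176 ± 39.7 CPM (adjusted p = 0.466).

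The auxin families lay mostly on the higher side by small amounts. miR160 and miR167 target auxin response factors, miR393 targets the TIR1-type auxin receptors, and miR390 starts the production of TAS3-derived small RNAs that act on further auxin response factors. All 5 tested miR160 and all 5 miR393 entries were higher on day 8 without overlap, beside 34.9% over all entries. Their medians were 0.46 and 0.38, and none reached an unadjusted p of 0.05. Several share reads: miR160a with miR160d, miR160b* with miR160g*, and miR393a* with miR393c*. The miR393 star pair had only 7 and 4 counts, then 11 and 9. miR160b* and miR160g* each had 127 and 97 counts, then 122 and 97, and were higher only after scaling (log2 change 0.13). miR160d had 241 and 146 counts, then 339 and 187, 16.8 ± 3.95 against 25.3 ± 6.36 CPM, a log2 change of 0.59 (SE 0.28, adjusted p = 0.329). The spread within each day was nearly as wide as the difference between days. miR393a had 133, 97, 155 and 113 counts and a log2 change of 0.38 (adjusted p = 0.482). miR390 lay on the lower side, with miR390a at −0.34 and miR390a* (36 and 29 counts, then 17 and 14) at −0.91 (SE 0.32, adjusted p = 0.157). Over the auxin list of 24 entries, 1 was higher and 2 lower at an unadjusted p under 0.05, beside 6.04% and 8.72% over all entries. Under the root filter 1 entry passed, lower, beside 7.52% lower over all entries.

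That entry was miR167h*, which had the smallest adjusted p of any under the root filter (4.18e-06). It had 1749 and 1464 counts on day 0 and 946 and 650 on day 8, or 141 ± 1.16 and 77.6 ± 7.70 CPM. The log2 change was −0.87 (SE 0.27, adjusted p = 0.103 in the fit of all 149 entries), 1.82-fold lower. Its guide miR167h, with 22542, 17475, 18255 and 15201 counts, was at −0.09. The star entry's share of the counts of both entries was 7.43% on day 0 and 4.55% on day 8. miR167h* had the same counts as miR167i*, and miR167h shares nearly all its reads with miR167g and miR167i. These shares may therefore cover reads of more than 1 hairpin. miR167j* lay the other way, with 357 and 225 counts, then 406 and 424, a log2 change of 0.70 (SE 0.28, adjusted p = 0.261), beside 0.16 for its guide miR167j. The lead guide miR167b was at 0.09.

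Among the copper miRNAs, which lower the amounts of copper proteins such as laccases, plantacyanins and superoxide dismutases, miR397 differed most. miR397 targets laccases, enzymes of lignin formation. miR397b had 289 and 256 counts on day 0 and 549 and 338 on day 8, 24.1 ± 0.766 against 42.9 ± 7.54 CPM, a log2 change of 0.83 (SE 0.26, adjusted p = 0.109, and 0.00165 under the root filter). miR397a had 29 and 38 counts, then 65 and 50, a log2 change of 0.92 (SE 0.29, adjusted p = 0.109, and 0.0412 under the root filter). Neither overlapped between days. miR397b*, more abundant than its guide, had 1320, 1485, 1793 and 1208 counts and a log2 change of 0.22, with overlap. All 3 miR408 entries were higher without overlap, beside 34.9% over all entries, with a median of 0.36. miR408a and miR408b share reads, and miR408b* at 0.19 was the most abundant of the 3. miR398a was at 0.16. miR528b, one of the most abundant root entries, had 304989, 357009, 389852 and 291708 counts and a log2 change of 0.17 (SE 0.19). The miR528 family's median was 0.01, and −0.03 when scaled to listed reads. Of the 14 entries of this list, 2 were higher and 0 lower at an unadjusted p under 0.05, beside 6.04% and 8.72% over all entries. Both were miR397, and both passed under the root filter, beside 5.26% higher over all entries.

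**Figure D3:**
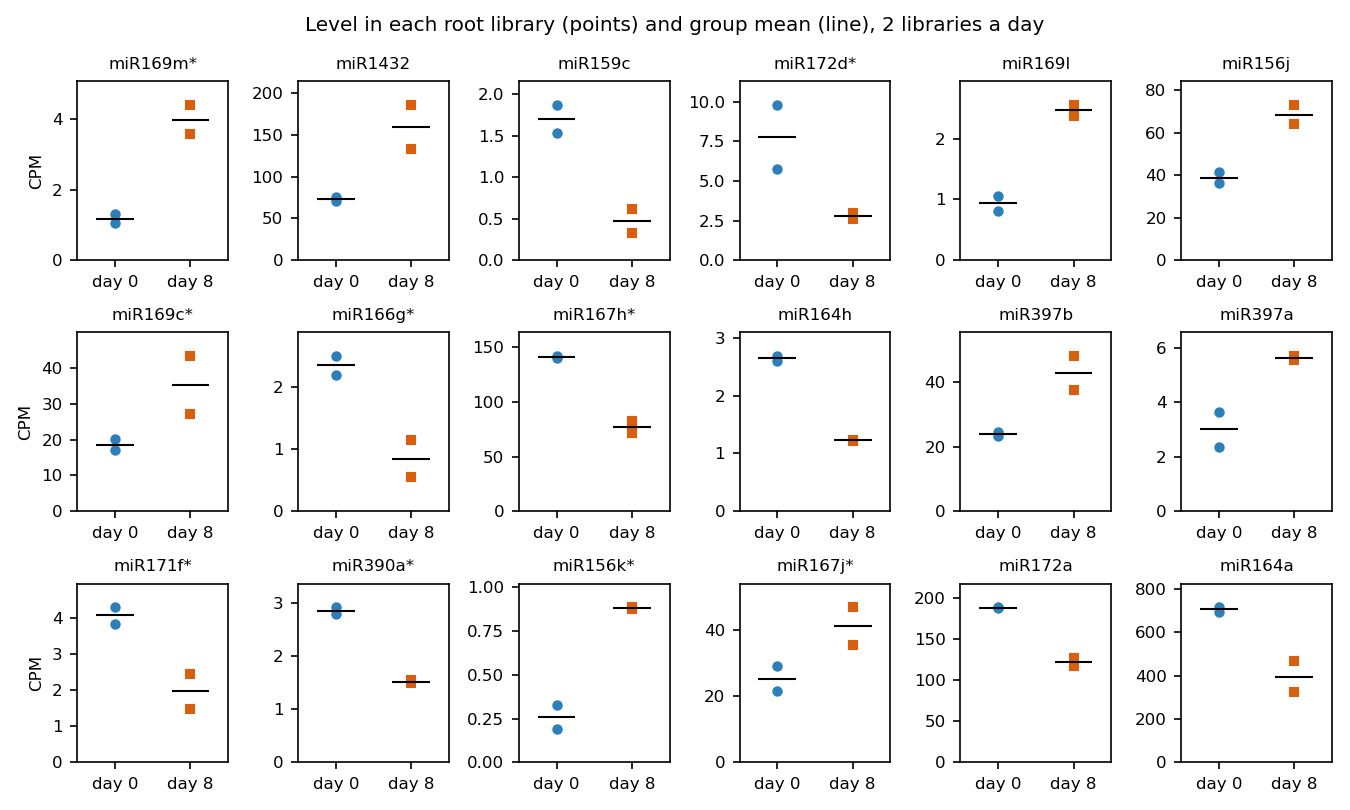
CPM (y axis, from 0, with its own scale in each panel) in each root library on day 0 (circles) and day 8 (squares) for entries with an unadjusted p under 0.05, with a line at the mean of 2 libraries; miR172b* and the near copies miR164b, miR164c and miR164g are left out. No panel has overlapping days, and several of the larger folds, such as miR159c and miR156k*, rest on levels under 2 CPM.

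The 1 entry with a mean root level over 100 CPM and a 2-fold difference was miR1432. It is a cereal miRNA that, in rice, acts on an acyl-CoA thioesterase gene. It had 878 and 782 counts on day 0 and 1509 and 1671 on day 8. The level was 73.3 ± 2.62 CPM and then 159 ± 37.5 CPM, a 2.17-fold difference and a log2 change of 1.12 (SE 0.26, adjusted p = 0.0603, and 0.000386 under the root filter). Both day 8 libraries lay above both day 0 libraries, although they differed from each other more than the day 0 pair. It also had a log2 change of 0.83 in leaf, and the leaf and root changes were not called different (−0.29, SE 0.381, adjusted p = 0.924).

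No entry of the silencing, phosphate or sulfate lists had an unadjusted p under 0.05. miR168, which targets the Argonaute gene AGO1, was the most abundant entry. miR168a had 791420, 723108, 799152 and 735856 counts, 66925 ± 3595 CPM on day 0 and 75913 ± 8156 CPM on day 8, a log2 change of 0.18 (SE 0.13, adjusted p = 0.517). miR162, which targets a Dicer-like gene, had 15 to 21 counts in each library and a log2 change of 0.07. miR827, induced by phosphate starvation in plants and acting on SPX-domain genes, had 178, 134, 152 and 136 counts and a log2 change of 0.05 (SE 0.26, adjusted p = 0.917). miR827* had 85 and 76 counts, then 49 and 44, a log2 change of −0.63 (adjusted p = 0.339), without overlap. miR399, which restrains the phosphate regulator PHO2, was nearly absent, with 1 to 3 counts per library for miR399e and miR399i, so a change could not be seen at this depth. The 4 tested entries of the phosphate list had a median log2 change of −0.59, which rests in part on the 2 scarce miR399 entries. The sulfate-related miR395 had 4 tested entries with a median of 0.16, and its lead entry miR395b* was at −0.53 (adjusted p = 0.634). miR394a was at 0.10.

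Among 52 star strands, 4 were higher and 6 lower at an unadjusted p under 0.05, and among 97 guides 5 were higher and 7 lower, beside 6.04% higher and 8.72% lower over all entries. Star strands made up only 0.173% to 0.194% of distinct counts, in which reads shared by near copies of abundant guides are counted more than once. Both strands were tested for 52 hairpins, and for 42 of these, with 38 distinct guides in 16 families, both also had at least 10 counts in at least 2 root libraries. Over these 42 the median absolute log2 change was 0.17 for the guides and 0.37 for the stars, at median levels of 153.9 and 9.10 CPM. The strands had the same sign in 29 of 42, and Pearson's r of their log2 changes was 0.494 across hairpins, which share libraries and, in part, guides; over all 52, some with no more than 1 read in root, it was 0.118. In 8 of the 42 the star strand was above the guide, among them miR408b and miR397b. The star held 91.9% of the counts of both entries on day 0 and 90.9% on day 8 in miR408b, and 83.7% and 77.2% in miR397b. These shares were close on both days in miR408b. In miR169c the star share was 12.4% on day 0 and 16.6% on day 8. The guides miR408b and miR169c share reads with miR408a and miR169r, so their shares may cover more than 1 hairpin.

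Leaf libraries of the same plants' stages were used to see where root differed. The difference between the leaf and root changes was tested in the same fit and passed the adjusted threshold in 9 of 149 entries (6.04%), of which 8 (5.37%) had the lower change in leaf. These 9 were 6 near-identical miR156 guides and 3 star strands. miR156a was level in root (log2 change 0.02), and in leaf its level was 72042 ± 1680 CPM on day 0 and 52322 ± 424 CPM on day 8, a log2 change of −0.46. The difference of the changes was −0.48 (SE 0.124, adjusted p = 0.0441). miR156c, miR156e, miR156f, miR156g and miR156l gave the same difference to 2 decimals. None of these 6 calls held in most other settings: each missed the threshold in 14 of 17, among them DESeq2, both other scalings, the root filter and the replicate block. In leaf by itself 15 of 149 entries (10.1%) passed between the days, miR156a among them.

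miR169c* had the widest gap of the 9. Its log2 change was 0.92 in root and −1.46 in leaf, where it went from 4.65 ± 0.328 to 1.67 ± 0.284 CPM, a difference of −2.38 (SE 0.456, adjusted p = 0.0421). miR169k* was at 0.27 in root and −1.06 in leaf, a difference of −1.33 (SE 0.345, adjusted p = 0.0441), which missed the threshold in 11 of 17 other settings, while miR169c* missed it in 2. miR167h* was the 1 entry with the higher change in leaf, −0.87 in root and 0.60 in leaf, a difference of 1.47 (SE 0.373, adjusted p = 0.0441), although its leaf replicates on day 8 were far apart (926 ± 115, then 1405 ± 484 CPM). It missed the threshold in 5 of 17 other settings. miR172a was at −0.63 in root and 0.68 in leaf and narrowly missed the threshold (adjusted p = 0.0579). miR164a, at −0.83 in root and 0.35 in leaf, was not called (adjusted p = 0.243). The number of calls was 0 without either leaf day 0 library, 19 or 20 without leaf day 8 replicate 1 or 2, 5 without root day 0 replicate 1 or 2, and 6 or 5 without root day 8 replicate 1 or 2.

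**Figure D4:**
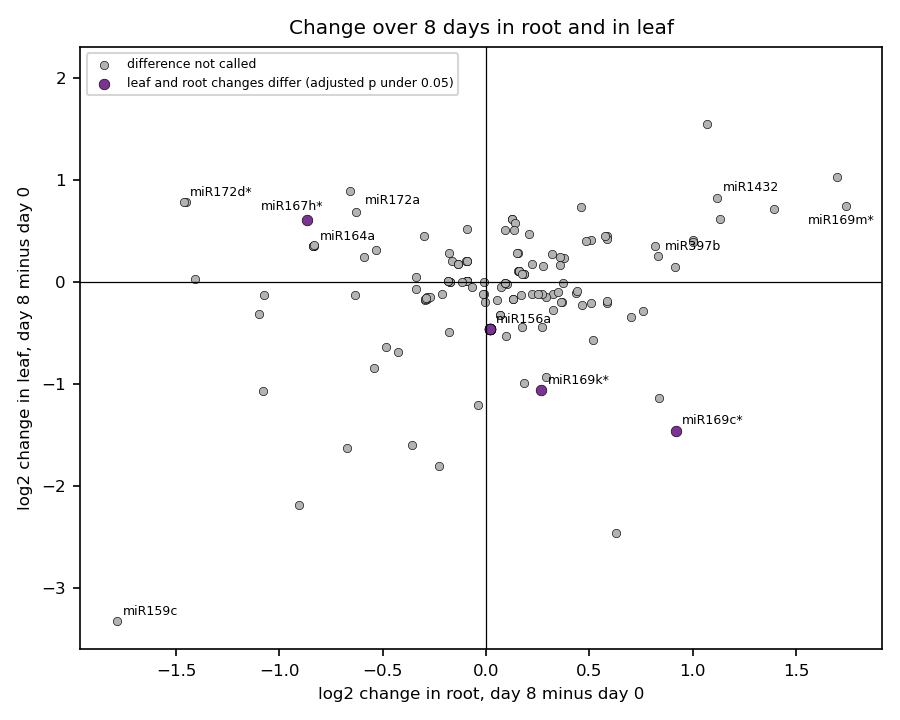
Log2 change from day 0 to day 8 in root (x axis) and in leaf (y axis) for the tested entries with a mean root level of at least 0.1 CPM. The 9 entries whose leaf and root changes differed at an adjusted p under 0.05 are purple, and 6 of them are miR156 guides that fall on 1 point at 0.02 and −0.46. The miR172 and miR164 entries lie at upper left, but for miR164h at −1.10 and −0.32, and none passed the test.

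Root libraries of the low phosphate series, also from day 0 and day 8, were set beside these values. They were separate libraries, 1 per day, normalized separately to reads per 1000000 clean reads (RPM), so no test was made and each change is within its own table. Of the 22 entries with an unadjusted p under 0.05, 21 had low phosphate values, and 7 of these had the same sign in both series, on the log2(value + 1) scale. Over all 132 entries with values the sign was the same in 58, and Pearson's r of the changes was −0.242 across entries, which share libraries. miR1432 was higher on day 8 in both, at 45.5 and then 102 RPM in the low phosphate roots. miR156j, counted among the 7, was nearly level there, at 80.4 and then 82.5 RPM. miR397b, higher at sufficient phosphate, was at 44.2 RPM on day 0 and 6.59 RPM on day 8 of low phosphate. miR172a, lower at sufficient phosphate, was at 76.6 and then 140 RPM. miR167h* was at 73.0 and then 167 RPM, and miR164a at 648 and then 505 RPM.

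Phosphate miRNAs had far higher values on day 8 than on day 0 of low phosphate. miR827 was at 16.1 RPM on day 0 and 648 RPM on day 8 of low phosphate, and miR827* at 4.85 and 275 RPM, while miR827 was level in the sufficient phosphate roots. miR399e was at 0.184 RPM, worth 3 reads, and then 30.8 RPM. These values come from single libraries and have no replicate check.

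**Figure D5:**
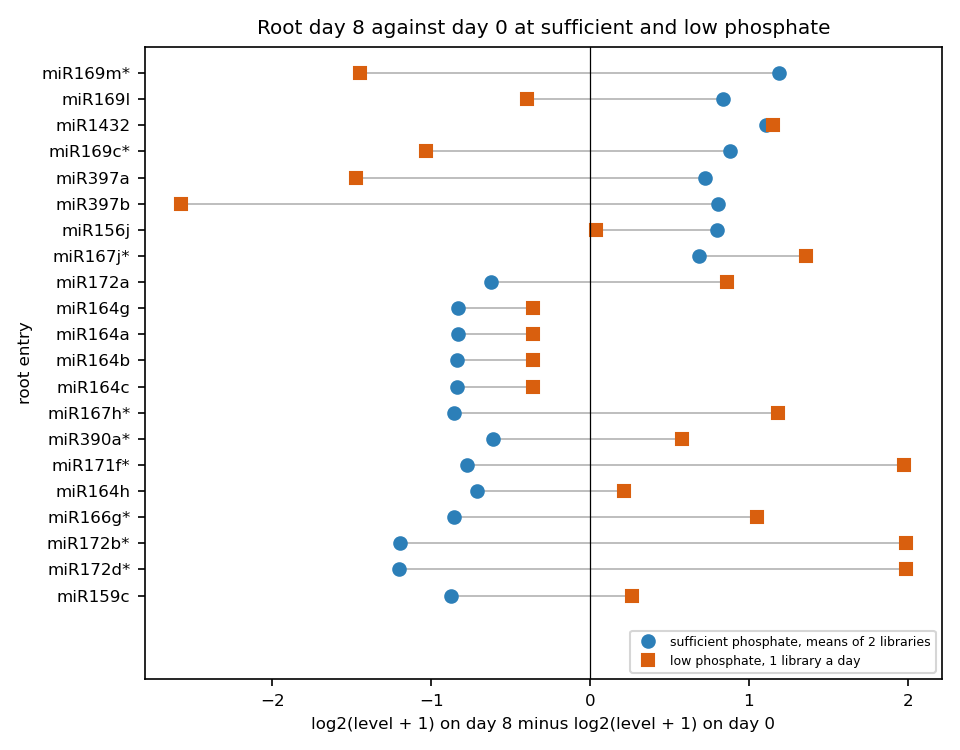
Day 8 minus day 0 on the log2(level + 1) scale (x axis) in root at sufficient phosphate (circles, CPM, means of 2 libraries a day) and low phosphate (squares, RPM, 1 library a day) for the 21 entries (y axis) with an unadjusted p under 0.05 and low phosphate values. Squares and circles lie on the same side of 0 for miR1432, miR156j, miR167j* and the 4 near copies miR164a, miR164b, miR164c and miR164g. The square of miR156j lies close to 0, at 0.04.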

How the data were processed

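Small RNA libraries were sequenced as 50 nt tags and cleaned, per the labels' protocols and design text; the sources used here name no aligner or miRNA annotation release. The deposited sufficient phosphate table holds whole-number counts of reads per miRNA, read here as not normalized; its column headings end in std, which no source explains. The deposited low phosphate table holds a signal that the design text defines as count over total clean reads times 1000000 (RPM here); its low values were whole reads within 0.03 at 15470000 to 21385000 clean reads, and 6 day 1 cells that repeat day 0 were treated as blank. The name miR166d occurs on 2 lines and both were kept. Strand was read from the asterisk alone, so both counted as guides. The first line had 81, 65, 73 and 45 root counts, against 81, 65, 73 and 44 for miR166b*, and may be a star strand without its asterisk.

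Counts of the 8 sufficient phosphate libraries were fitted with 1 coefficient per organ and day (4 residual degrees of freedom) in edgeR 4.0.16 (R 4.3.3), with TMM scaling and the robust quasi-likelihood test, two-sided, with Benjamini-Hochberg adjustment over all tested entries at 0.05. CPM are TMM-scaled, SD is over 2 libraries, and SE is the log2 change over the square root of F. With 2 libraries against 2, no exact permutation test can reach 0.05, and none was used. DESeq2 1.42.0 and limma 3.58.1 were alternatives. The fit was tested on simulated data. TMM factors were 1.23 to 1.29 in root and 0.734 to 0.937 in leaf.

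Entries were named if they passed 0.05, or, since fewer than 10 did, if the unadjusted p was under 0.05 (up to 25). Also named were the 5 most abundant in root, each family's most abundant, tested miR399 and miR827, the other strand of the hairpins of the first group, and entries past 0.05 in the leaf minus root difference. miR164f, miR169c and miR167j were added after their values were seen. The entries, lists and tests were chosen with earlier results of these data known.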

Additional observations from a re-analysis of the deposited data

Results flagged for a closer look

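In 9 entries the change over 8 days at sufficient phosphate differed between leaf and root by the test of the difference itself, in edgeR's quasi-likelihood fit with adjusted p. The difference, as leaf log2 change minus root log2 change, was −0.48 for each of miR156a, miR156c, miR156e, miR156f, miR156g and miR156l (adjusted p = 0.0441), which share most of their reads. It was −2.38 for miR169c* (adjusted p = 0.0421), −1.33 for miR169k* (adjusted p = 0.0441) and 1.47 for miR167h* (adjusted p = 0.0441). Each of the 6 miR156 calls missed the threshold in 14 of 17 other settings, miR169k* in 11, miR167h* in 5 and miR169c* in 2. Groups of 2 libraries are too small for a check on single outlying libraries.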

How the results depend on the processing

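The count of root entries past the threshold was 0 in the main fit of 8 libraries and 149 entries. It was 15 with median-ratio scaling (8 higher, 7 lower), 11 with scaling to listed reads (6 and 5) and 7 without the filter (5 and 2). With the root filter, still on 8 libraries, it was 17, and with DESeq2 it was 8 (4 and 4). It was 5 without the robust option (3 and 2) and 13 with all repeated entries kept (5 and 8). It was 0 with limma, with the root libraries alone (also with the root filter, an alternative chosen after seeing the data, which left 31 at an unadjusted p under 0.05) and with the replicate number as a block (26 at an unadjusted p under 0.05). Leaving out 1 library gave 0 to 20. The cause was not tested. The median prior degrees of freedom were 7.09 in the main fit and 45.3 with the root filter, and the common dispersions 0.0316 and 0.0213. The count for the leaf minus root difference, 9, was 4 with median-ratio scaling, 5 with listed reads, 5 without the filter, 6 with the root filter, 4 with DESeq2, 9 with limma, 1 without the robust option, 13 with repeated entries kept and 0 to 20 without 1 library. With the replicate block it was 1, miR169c* (adjusted p = 0.012). The labels share only a number between days; deviations of same-numbered root libraries correlated at −0.172, and −0.183 to 0.311 over all pairs of groups. No called value of a named entry changed sign under any of 19 other settings, and the 22 entries kept their sign throughout. Of 1210 values of the 64 named entries, 86 had another sign than in the main fit, none of them called. The median log2 change of all entries was 0.07, 0.06 with median-ratio scaling and 0.03 with listed reads. Depth limits entries under 10 counts, such as miR399.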
